A study of Mus musculus with 36 samples.

Results

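The 10 genes described here encode transcription factors and cofactors of the erythroid and megakaryocytic lineages: Gata1, Gata2, Klf1, Tal1, Lmo2, Gfi1b, Zfpm1, Nfe2, Fli1 and Ldb1. They were chosen by name, with earlier results of these data known. Their data are the 53 listed introns that match introns of these genes in the GENCODE M21 annotation, out of 219945 introns in 31747 genes. GENCODE M21 annotates 9 introns for Gata1, 7 for Gata2, 2 for Klf1, 6 for Tal1, 8 for Lmo2, 7 for Gfi1b, 12 for Zfpm1, 10 for Nfe2, 9 for Fli1 and 12 for Ldb1. The tables listed 5, 6, 2, 3, 3, 6, 9, 1, 8 and 10 of them, in the same order, so Nfe2 rests on a single intron. A gene's level is the sum of its spliced reads over listed introns, in counts per 1000000 spliced reads of the library (CPM), and a read that spans several introns counts at each.

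GATA1 and GATA2 bind DNA directly and share much of their binding sequence, and FOG1, the product of Zfpm1, is the cofactor that many GATA1 functions need. TAL1 pairs with E proteins on DNA and is held together with the GATA factors by the bridging proteins LMO2 and LDB1. KLF1 switches on globin and other red cell genes, GFI1B is a repressor needed by erythroid cells and megakaryocytes, NF-E2 serves platelet formation and globin expression, and FLI1 is an ETS factor that favours megakaryocytes over red cells.

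All mice were C57BL/6. Common (CMP), granulocyte-monocyte (GMP) and megakaryocyte-erythroid (MEP) precursors were sorted from 3 wild-type (WT) and 3 Zrsr2-deficient (KO) male littermates, so the 3 cell types of a genotype come from the same mice. Male embryos, 3 of each genotype, gave embryonic fibroblasts (MEF). Marrow cells without lineage markers but with Kit (Lin-Kit+) were cultured ex vivo and received a control hairpin or a hairpin against Zrsr1, sh1 or sh10, in WT and in KO cells. Each of these 6 groups has 2 libraries, 1 from each of 2 experiments, and nothing in the labels says that they came from different mice, so their p-values measure only the spread between these libraries. ZRSR2 and ZRSR1 are splicing factors of the minor spliceosome, and the study asked how their loss alters splicing in blood cells. No figure for the level of Zrsr1 itself can be given because no intron of Zrsr1 was listed.

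Spliced counts per library ranged from 44083233 to 84832431 for precursors, from 43514139 to 61124920 for MEF and from 30481450 to 43345548 for Lin-Kit+ cells. Zrsr2 lay at 23.8 to 34.2 CPM in WT precursors and at 0 to 5 counts in KO precursors. Its log2 change was -10.93 (SE 0.54, adjusted p = 1.82e-08) in CMP, -10.25 (SE 0.50, 1.59e-08) in GMP and -8.96 (SE 0.45, 2.63e-08) in MEP by edgeR, sizes that at so few KO counts depend on the fit and are no bound. In the 2 KO Lin-Kit+ control libraries Zrsr2 had 3 and 57 counts, against 1045 and 1085 in the WT ones. There the log2 change was -4.77 (unadjusted p = 0.00287, adjusted p = 1), and in MEF, with 0 to 20 KO counts, -6.54 (unadjusted p = 0.000106, also lost on adjustment). By edgeR even Zrsr2 was thus not called in these 2 data sets. Summed erythroid genes reached 12514 to 12886 CPM in WT MEP against 1980 to 3516 in WT CMP and 774 to 1005 in WT GMP. Summed megakaryocyte genes were lowest in WT MEP, at 61.9 to 110.7 CPM against 1306 to 1771 in WT CMP. The libraries labelled MEP thus carried erythroid transcripts and few transcripts of these megakaryocyte genes. The same sum was 5649 to 7111 CPM in WT MEF, so it does not measure megakaryocytes alone. In such bulk samples fewer cells of a type and less RNA per cell cannot be told apart.

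The promoter sequences that follow are shown because Gata2 and Ldb1 have alternative first exons, and because windows differ in matches to the GATA motif. They are the bases before the transcript start in RefSeq annotation of GRCm38.p6, outside any GENCODE exon, 5′ to 3′ on the gene's strand. Capitals mark matches to the GATA motif, searched on both strands as AGATAA and its variant AGATAG, as well as the form TGATAA and its variant TGATAG. In all, 11 windows were found for 7 of the 10 genes.
Gata2 distal first exon, chr6:88193641-88193890, plus strand: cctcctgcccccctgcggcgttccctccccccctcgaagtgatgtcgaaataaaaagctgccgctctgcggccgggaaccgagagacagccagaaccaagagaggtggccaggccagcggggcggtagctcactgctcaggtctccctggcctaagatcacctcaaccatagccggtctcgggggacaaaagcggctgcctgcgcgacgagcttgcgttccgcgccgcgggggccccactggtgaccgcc
Ldb1 farthest upstream RefSeq start, chr19:46045312-46045561, minus strand: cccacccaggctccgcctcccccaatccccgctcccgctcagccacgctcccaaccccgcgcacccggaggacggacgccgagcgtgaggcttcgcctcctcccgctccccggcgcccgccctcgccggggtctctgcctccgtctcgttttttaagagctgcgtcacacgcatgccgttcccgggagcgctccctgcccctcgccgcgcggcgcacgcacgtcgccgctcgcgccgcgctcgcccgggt
Ldb1 internal first exon, chr19:46039622-46039871, minus strand: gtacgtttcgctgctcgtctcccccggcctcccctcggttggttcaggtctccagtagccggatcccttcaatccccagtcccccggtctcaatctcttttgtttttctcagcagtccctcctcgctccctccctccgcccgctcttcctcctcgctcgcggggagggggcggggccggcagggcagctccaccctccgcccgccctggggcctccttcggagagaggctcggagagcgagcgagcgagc
Klf1, chr8:84901732-84901927, plus strand: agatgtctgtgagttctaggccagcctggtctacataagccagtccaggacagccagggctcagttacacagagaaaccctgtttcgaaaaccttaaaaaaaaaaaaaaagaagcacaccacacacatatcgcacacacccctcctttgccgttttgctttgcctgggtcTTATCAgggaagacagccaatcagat
Gfi1b, chr2:28621983-28622232, minus strand: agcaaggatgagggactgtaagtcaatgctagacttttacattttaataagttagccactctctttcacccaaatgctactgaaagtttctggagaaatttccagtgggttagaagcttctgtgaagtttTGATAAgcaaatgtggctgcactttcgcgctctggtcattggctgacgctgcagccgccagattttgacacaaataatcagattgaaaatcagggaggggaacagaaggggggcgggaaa
The motif occurred once in the Klf1 window, 80 bases before the RefSeq start at chr8:84901982. The printed Klf1 sequence ends short of that start, where a GENCODE exon begins. It occurred once in the Gfi1b window, 120 bases before the start. The motif also occurred once in a Tal1 window (205 bases before the start) and at 2 places in another Ldb1 window (240 and 200 bases before its start). The Gata1 and Zfpm1 windows, both Gata2 windows, the other Tal1 window and both Ldb1 windows shown held none, so Tal1 and Ldb1 had windows of either kind. Of all 32851 RefSeq windows, 26.54% held a match, so a match in these windows is a description and not a binding site.

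Gata1, Klf1, Gfi1b, Tal1, Zfpm1 and Ldb1 were highest in WT MEP and lowest in WT GMP, Fli1 and Nfe2 were low in MEP, Gata2 peaked in CMP, and Lmo2 varied least. These comparisons ask how the factors are distributed over the sorted precursors. By edgeR's quasi-likelihood test over 17367 genes, MEP against CMP called 6 members higher and 3 lower, where 46.5% of all genes were called in either direction. MEP against GMP called 8 higher and 2 lower (45.7% of all genes), and GMP against CMP called 9 lower (24.7%). Counted by libraries that do not overlap, MEP had 6 members above and 4 below CMP (19.7% and 34.4% of all genes), and 8 above and 2 below GMP (24.6% and 28.6%), and GMP had 9 below CMP (28.1%). The 3 comparisons share their groups in pairs, so they are not independent of each other.

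Gata1, the GATA factor of maturing red cells and megakaryocytes, measured 68.1, 60.1 and 87.2 CPM in the 3 WT CMP libraries, 3.89, 2.15 and 4.29 in WT GMP and 201, 198 and 182 in WT MEP. All 3 groups were apart, with every MEP library above every CMP library and every CMP library above every GMP library. Gata1 was 2.97-fold higher in MEP than in CMP (log2 1.57, SE 0.24, adjusted p = 3.85e-05) and 56.7-fold higher than in GMP (log2 5.82, SE 0.29, 9.10e-11).

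Gata2, the GATA factor of stem and early progenitor cells, had another order. It measured 72.8, 82.7 and 72.8 CPM in WT CMP, 17.9, 12.6 and 17.4 in WT GMP and 31.9, 23.9 and 20.3 in WT MEP. CMP stood above both other groups, and the log2 change in MEP against CMP was -1.45 (SE 0.25, adjusted p = 0.00013). MEP exceeded GMP by 0.67 (log2, SE 0.25, adjusted p = 0.0367), a call that was lost without GMP library 2 or 3 or MEP library 1 or 2 (adjusted p of 0.0595 to 0.156). To set genes side by side, the median CPM over a gene's listed junctions was taken in each library. A junction that shares a splice site with a more used one was left out. By this measure Gata1 had 13.5 ± 2.38 CPM and Gata2 18.3 ± 1.60 in WT CMP (mean and SD, n = 3). In WT MEP the order was turned, at 39.0 ± 3.92 and 6.36 ± 1.73. Junction means in WT CMP ran from 10.1 to 21.5 CPM for Gata1 and from 4.53 to 26.7 for Gata2. Their order in CMP thus depends on the measure.

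Zfpm1, the gene of FOG1, followed Gata1. Its 3 WT libraries gave 146, 153 and 179 CPM in CMP, 14.8, 17.1 and 19.4 in GMP and 253, 258 and 306 in MEP, with no overlap between groups. MEP exceeded CMP by 0.91 (log2, SE 0.14, adjusted p = 3.48e-05), and GMP lay below CMP by 3.09 on the same scale (log2 change -3.09, SE 0.15, 5.86e-10). Another gene, Gm20388, is annotated over Zfpm1 on the same strand, so the reads of both cannot be told apart.

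Among the proteins that hold the complex together, Tal1 and Ldb1 rose in MEP against CMP, and Lmo2 did not pass the test. Tal1 measured 19.2, 17.8 and 26.2 CPM in WT CMP, 6.24, 4.96 and 6.34 in WT GMP and 41.2, 36.5 and 52.5 in WT MEP. The groups did not overlap, and Tal1 was 2.27-fold higher in MEP than in CMP (log2 1.18, SE 0.21, adjusted p = 0.000179). Ldb1, the adaptor that dimerises and brings distant sites together, was also widely expressed. It gave 393, 340.5 and 361 CPM in WT CMP, 156, 169.6 and 152 in GMP and 645, 583 and 465 in MEP, a log2 difference of 0.77 (SE 0.099, adjusted p = 7.97e-06) between MEP and CMP.

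Lmo2, the LIM-only bridge between TAL1 and LDB1, measured 108, 106 and 109 CPM in WT CMP, 75.4, 78.2 and 71.1 in WT GMP and 91.7, 103 and 94.2 in WT MEP. Its MEP libraries lay below its CMP libraries as plain CPM, yet the fitted log2 difference was -0.02 (95% interval -0.18 to 0.13, adjusted p = 0.839). Plain CPM put the median of all tested genes at -0.18 in this contrast, while the TMM-scaled fit put it at -0.05, and the fitted values are the ones used here. Lmo2 was lower in GMP than in CMP by 0.39 (log2 change -0.39, SE 0.077, adjusted p = 0.00135), a call that was lost when a gene's median intron replaced its sum (adjusted p = 0.124). A gene on the other strand, 4931422A03Rik, overlaps Lmo2. No strand is recorded for the counting, so its reads could add to the boundary reads of Lmo2 introns. The level rests on spliced reads at the exact coordinates of Lmo2 introns.

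Klf1, the activator of globin genes, was the member with the largest rise from CMP to MEP. It measured 13.2, 10.3 and 19.8 CPM in WT CMP, 1.496, 1.21 and 1.09 in WT GMP and 88.5, 88.0 and 105 in WT MEP. MEP was 7.16-fold above CMP (log2 2.84, SE 0.21, adjusted p = 1.19e-08) and 74.0-fold above GMP (log2 6.21, SE 0.25, 7.98e-12). Gfi1b, the repressor, gave 42.3, 50.3 and 71.7 CPM in WT CMP, 1.92, 1.92 and 3.94 in WT GMP and 203, 210.0 and 189 in WT MEP. It was 4.04-fold higher in MEP than in CMP (log2 2.01, SE 0.25, adjusted p = 4.65e-06), and its fold over GMP, 78.1, was the highest of the 10 genes in that comparison.

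Fli1 and Nfe2 were lower in MEP than in CMP, whereas Gata1 and Gfi1b, which megakaryocytes also need, were higher. Fli1 measured 54.1, 62.9 and 46.2 CPM in WT CMP and 55.4, 54.6 and 51.6 in WT GMP, which overlapped (log2 0.12, 95% interval -0.33 to 0.58, adjusted p = 0.771). WT MEP had 7.20, 3.86 and 2.38 CPM, a log2 change of -3.48 (SE 0.26, adjusted p = 1.65e-08) against CMP. Plain CPM gave -0.01 for GMP against CMP, so the sign of that small difference depends on the scaling. Nfe2 measured 24.6, 26.2 and 26.7 CPM in WT CMP, 18.7, 17.6 and 18.7 in WT GMP and 10.6, 11.5 and 9.93 in WT MEP. The 3 groups stood apart in that order, with a log2 change of -1.14 (SE 0.10, adjusted p = 1.58e-07) in MEP against CMP and -0.36 (SE 0.10, 0.0164) in GMP against CMP. The second of these was lost without CMP library 2 (adjusted p = 0.0545) or GMP library 2 (0.0642).

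**Figure D1:**
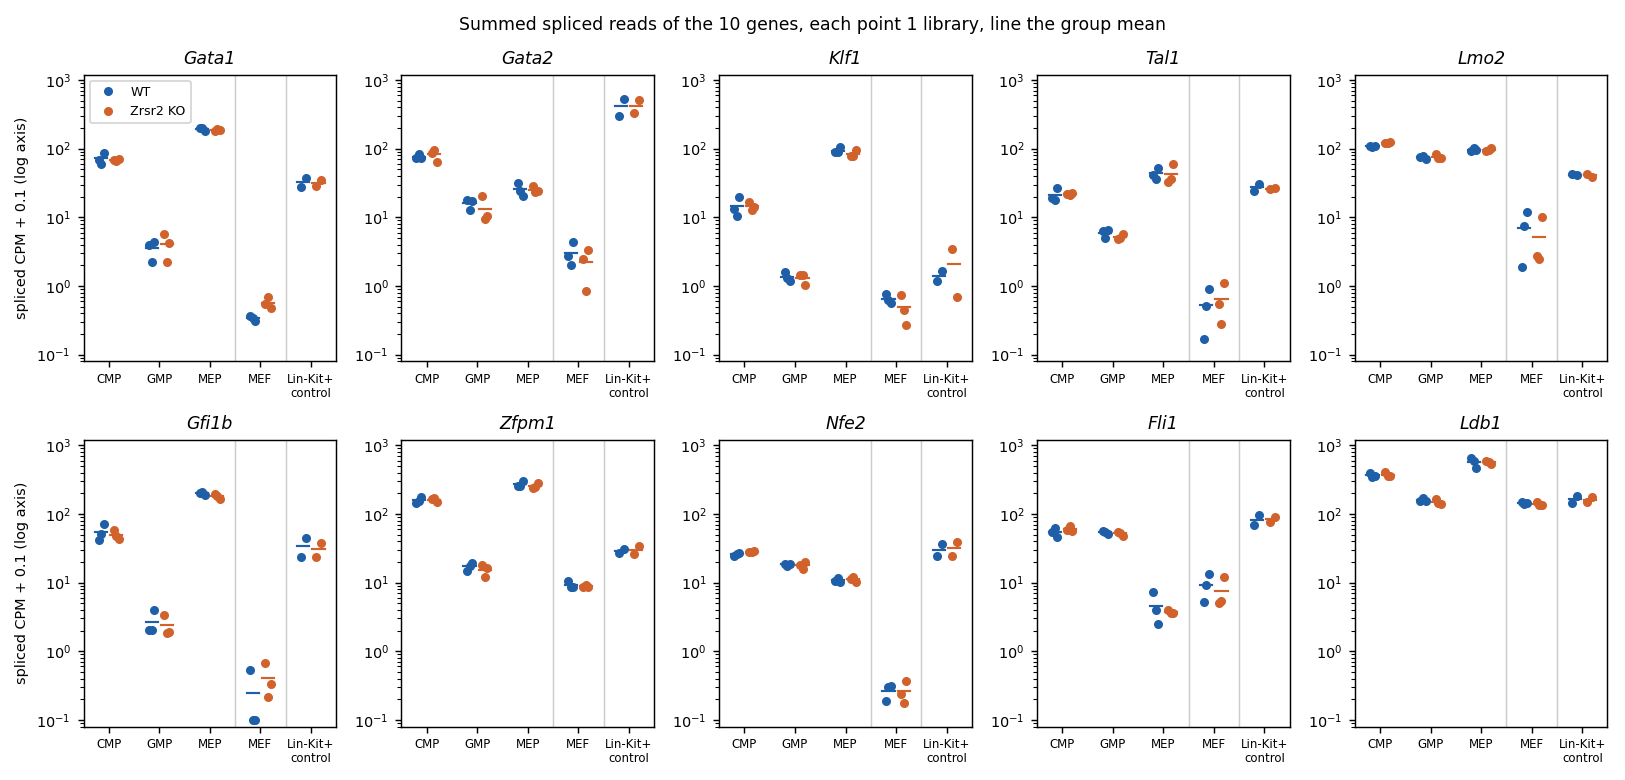
Spliced CPM (log axis, 0.1 added) of each gene in WT (blue) and KO (orange) libraries of CMP, GMP, MEP, MEF and control-hairpin Lin-Kit+ cells, 1 point per library and a line at the group mean. Gata1, Klf1 and Gfi1b span the widest range, Fli1 is low in MEP, and the blue and orange points of a cell type lie close together in the precursors.

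Levels of different genes can be compared only per junction, here by the same median over a gene's junctions. It leaves out the junctions from the distal first exons of Gata2 and Ldb1 and an Lmo2 junction that skips an exon. In WT MEP its mean was 65.1 ± 11.4 CPM for Ldb1, 48.1 ± 3.04 for Lmo2 and 46.8 ± 4.69 for Klf1 (SD, n = 3). Gata1 had 39.0 ± 3.92, Gfi1b 33.7 ± 1.45 and Zfpm1 31.3 ± 3.29. Tal1 followed at 14.9 ± 3.66, Nfe2 at 10.7 ± 0.788, Gata2 at 6.36 ± 1.73 and Fli1 at 0.543 ± 0.307. Lmo2 and Klf1, and Gfi1b and Zfpm1, were neighbours whose difference was within their spread. In WT CMP the order began with Lmo2 (53.9 ± 0.756) and Ldb1 (41.5 ± 4.69), and Klf1 stood at 7.21 ± 2.43.

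Over the 18 precursor libraries, log2(CPM + 1) of Gata1 ran closely with Gfi1b (Pearson r = 0.994), Zfpm1 (0.991), Ldb1 (0.983), Tal1 (0.977) and Klf1 (0.964), and opposite to Fli1 (-0.677) and Nfe2 (-0.297). These values describe 3 cell types with 6 libraries each, which share their sort, so they carry no p. The gene most like Gata1 by the same measure was Aqp1 (0.998), a water channel of red cells. It was also the closest to Gfi1b (0.997). Blvrb, a heme breakdown enzyme, was closest to Klf1 (0.998), Itgb7 to Gata2 (0.982), Clic4 to Tal1 (0.988), Samd14 to Zfpm1 (0.997) and Tspo2 to Ldb1 (0.992). For the others the nearest were Myo1c for Lmo2 (0.959), Msn for Nfe2 (0.990) and Sla for Fli1 (0.997).

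Lists of other genes of the 2 lineages were set beside the members. These lists were chosen with earlier results of these data known, so their counts are a description only. Of 41 erythroid genes, 39 were tested and 28 rose and 2 fell in WT MEP against WT CMP (median log2 change 1.98 against -0.05 for all genes, of which 46.5% were called). Examples are the erythropoietin receptor Epor (2.78, SE 0.155, adjusted p = 6.63e-10) and the heme enzyme Urod (1.53, SE 0.085, 6.63e-10). Of 21 megakaryocyte genes, 20 were tested, none rose and 15 fell (median -4.13), among them Itga2b, the platelet integrin chain (-4.77, SE 0.30, adjusted p = 2.57e-09). Of the 33 partners and corepressors of the complexes, 10 were higher and 9 lower (median 0.11), where 46.5% of all genes were called. Runx1 and its partner Cbfb were among those that fell (-1.35, SE 0.096, 8.94e-09, and -2.36, SE 0.086, 9.27e-12). In GMP against CMP, 24 of the 39 erythroid genes fell and 2 rose, and 14 of the 20 megakaryocyte genes fell (24.7% of all genes were called). Of 7 tested granulocyte-monocyte transcription factors, 6 fell in MEP against CMP, with Spi1, the gene of PU.1, at -4.73 (SE 0.22, 1.28e-10).

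In MEF, which are not blood cells, Gata1, Klf1, Gfi1b and Nfe2 stayed at or below 0.660 CPM in every library, and Tal1 at or below 1.01. Gfi1b had 0 counts in 2 of the 3 WT libraries, where 3 counts set the limit of what would have been seen. Ldb1, which has roles outside blood, kept 151, 138 and 145 CPM in WT. Lmo2 measured 1.80, 7.44 and 11.7 CPM in WT MEF 4, 5 and 6 and 2.64, 2.41 and 10.1 in KO MEF, and Fli1 gave 5.04, 9.18 and 13.1 in WT and 4.92, 5.38 and 12.01 in KO. Both followed the sum of 13 monocyte and macrophage genes in the same libraries, 1253, 5570 and 10614 CPM in WT and 2326, 2404 and 8353 in KO, and the part of such cells in these levels was not tested.

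Among cultured Lin-Kit+ libraries carrying the control hairpin, Gata2 lay above its level in every sorted precursor library. It reached 298 and 537 CPM in experiments 1 and 2 of WT cells and 328 and 508 in KO cells, against at most 96.8 in any precursor library. Klf1 was at 1.08 and 1.53 CPM in WT. Fli1 stood at 67.9 and 95.2, Ldb1 at 143 and 185, Lmo2 at 42.2 and 41.2, and Gata1 at 27.6 and 37.2. In the same WT libraries 11 mast cell and basophil genes summed to 7482 and 14917 CPM, against 197 to 211 in WT CMP, and their part in the Gata2 level was not tested. Library kit, culture and cell population all differ between the 2 data sets, so no test was made across them.

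Gata2 and Ldb1 each have first exons at a distance from each other, whose junctions meet at a common acceptor. In mouse, Gata2 is known to start at a distal exon used in blood and neural cells and at a general proximal exon. Here the distal exon (chr6:88193891-88194000) joins the acceptor after an intron at chr6:88194001-88199516, and the proximal exon (chr6:88198334-88198881) joins it after chr6:88198882-88199516. The distal junction took 2.77%, 8.56% and 7.60% of the reads at this acceptor in the WT CMP libraries, 25.9%, 8.96% and 16.3% in WT GMP and 7.39%, 8.03% and 3.45% in WT MEP. Each WT GMP value lay above all WT CMP and MEP values, but rested on only 81, 67 and 43 reads. Over all introns with 10 or more reads that share an acceptor, libraries did not overlap in such a share for 12% in GMP against CMP, 18.8% in MEP against GMP and 18.5% in MEP against CMP, in either direction. KO GMP (24.2%, 15.4% and 9.86%) overlapped KO CMP (11.7%, 6.20% and 6.38%). No Gata2 junction passed the test of junction use among precursors (lowest unadjusted p for the distal junction 0.110, adjusted p = 1). In Lin-Kit+ cells the distal junction took 38.9% in each WT control library (3836 of 9868 reads in all), and group means stayed between 36.8% and 40.6% over all 6 groups. Every Lin-Kit+ library, at 34.3% or more, was above every precursor library, at 25.9% or less. This difference was not tested because cells, culture and kit change together.

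The starts of Ldb1 with a listed junction are a distal exon and an internal exon at chr19:46039055-46039621. The upstream window of the internal exon is printed above. The distal exon ends at chr19:46044830 and has 4 annotated starts in GENCODE M21, from 46044914 to 46045214. The other Ldb1 window printed above lies before a RefSeq start at 46045311, which is 97 bases beyond the farthest of these. The distal junction (intron 1, chr19:46036366-46044829, minus strand) took 21.1%, 23.8% and 22.4% of the reads at the common acceptor in WT CMP, 34.7%, 33.1% and 39.6% in WT GMP and 8.46%, 9.97% and 13.1% in WT MEP. The 3 groups did not overlap. In MEP, where the Ldb1 level was highest, the internal junction thus took most reads at this acceptor, as it did in CMP and GMP. Another RefSeq start, at 46037070, has no listed junction of its own, so these are not shares of all Ldb1 transcripts. In edgeR's test of junction use within genes, intron 1 fell by 1.66 (log2 change -1.66, adjusted p = 1.14e-10) in MEP against GMP, where 0.24% of 127059 introns were called in either direction. This call held in every setting tried. GMP exceeded CMP by 0.93 (adjusted p = 0.0190, background 0.0504%), but the call was lost with limma-voom (adjusted p = 0.274) and without any 1 of the 6 libraries (0.0673 to 0.184). In MEP against CMP the internal junction (chr19:46036366-46039054) rose by 0.59 (adjusted p = 0.0206, background 0.687%), lost without CMP library 2 or 3 or MEP library 1 or 3 (0.0736 to 0.248), while intron 1 gave -0.72 (adjusted p = 0.0574). In MEP against GMP the internal junction did not pass (0.59, adjusted p = 0.0574) but was called with the mouse as a block (0.60, 0.0299). MEF used the distal Ldb1 exon for 36.5%, 38.6% and 36.7% of reads in WT, and Lin-Kit+ control cells for 43.7% and 47.7%.

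**Figure D2:**
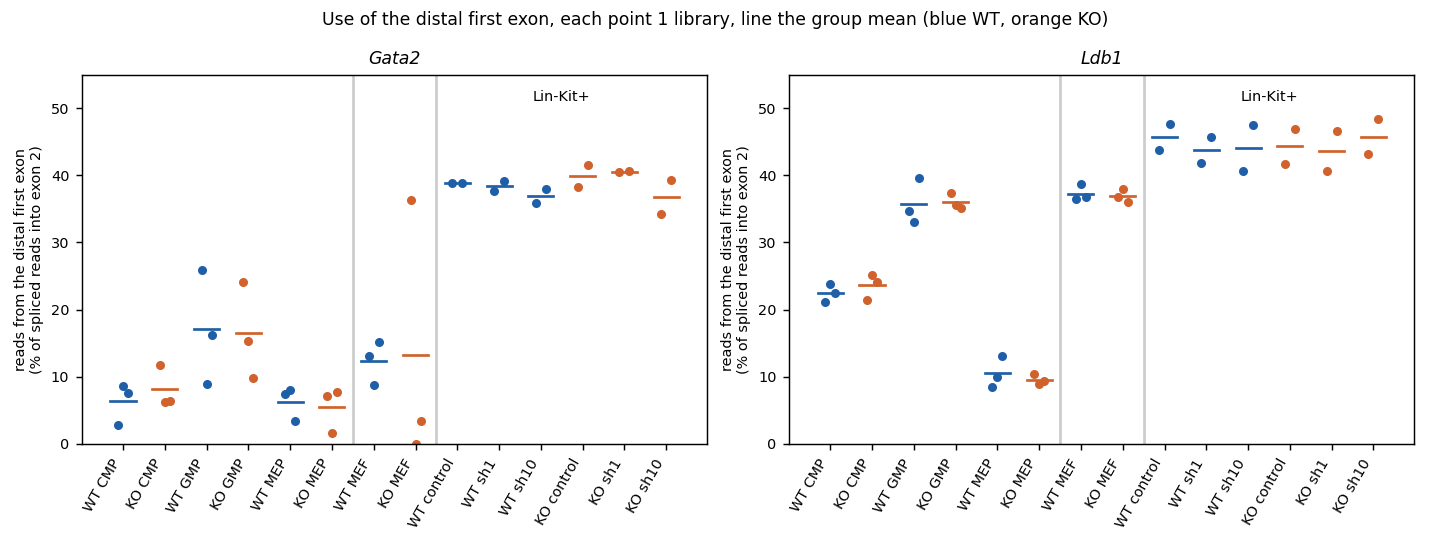
Share of spliced reads into the second exon that come from the distal first exon of Gata2 (left) and Ldb1 (right), 1 point per library with a line at the group mean, WT in blue and KO in orange. Lin-Kit+ libraries are above all precursor libraries for Gata2, and for Ldb1 MEP, CMP and GMP rise in that order in both genotypes.

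KO libraries showed the same order of the Ldb1 exons. The distal share was 21.5%, 25.2% and 24.2% in KO CMP, 37.3%, 35.6% and 35.1% in KO GMP and 10.4%, 8.98% and 9.35% in KO MEP, each overlapping its WT group. Junction use was tested for 9 of the 10 genes, and for 6 in MEF. Nfe2, with 1 listed intron, cannot be tested this way. No tested junction was called in KO against WT in any cell type. The share of all introns called was 0.00236% in CMP, 0% in GMP, 0.00157% in MEP and 0% in MEF and Lin-Kit+ cells. One of 52 tested member introns had an unadjusted p under 0.05 in CMP by edgeR, and none did in GMP, MEP, MEF or Lin-Kit+ cells (2.24%, 0.635%, 1.35% and 0.154% of all introns in CMP, GMP, MEP and MEF, and 0.141% and 0.364% in Lin-Kit+ cells with control and Zrsr1 hairpins). That intron is the Lmo2 junction that spans both listed introns of the reference transcript and so leaves out the exon between them (chr2:103970713-103980874). It took 3, 9 and 1 reads in WT CMP and 8, 9 and 16 in KO CMP (log2 1.60, unadjusted p = 0.0491, adjusted p = 1). In MEP it took 0.343%, 0.286% and 0.406% of the reads at its acceptor in WT and 0.908%, 0.737% and 0.657% in KO. The MEP groups do not overlap, as was so for 6.86% of all introns with 10 or more reads that share an acceptor, and the change did not pass the test.

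Retention was read from the deposited percent, 100 times the reads over the 2 exon-intron boundaries divided by these reads plus 2 times the spliced reads. Most member introns were low. In WT MEP the median over a gene's introns ran from 0% for Fli1 and 0.529% for Tal1 to 8.85% for Lmo2, and for Gata1 its introns lay between 0.647% and 5.33%. These medians leave out introns that share a site with a more used one, such as Ldb1 intron 1. Fli1 had only 157 to 472 spliced counts in a WT MEP library, and its 8 introns ran from 0% to 10.6%. Its 0% is thus near the limit of what could be seen. Lmo2 intron 2 (chr2:103976221-103980874) was the steadiest of the higher ones, with 15.3% ± 0.826 in CMP, 14.99% ± 1.25 in GMP and 14.1% ± 1.78 in MEP (SD, n = 3), and an exon of 4931422A03Rik lies in it on the other strand.

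Tal1 intron 2 (chr4:115059667-115063129, plus strand, 3463 bases) stood apart. It measured 36.7%, 29.7% and 22.4% in WT CMP, 61.1%, 62.9% and 64.6% in WT GMP and 11.1%, 9.73% and 11.3% in WT MEP, with no overlap between groups. The percent was thus highest where Tal1 was lowest, and the spliced reads behind it were few in GMP (48, with 161 boundary reads) and many in MEP (1699, with 413). The boundary reads were mostly at the acceptor end, 150 of them against 11 at the donor end in WT GMP and 352 against 61 in WT MEP, and no exon annotated in GENCODE M21 lies in the intron. Reads at 1 end only do not show an intron kept whole. The ratio of boundary to spliced reads changed by -3.78 (log2, SE 0.32, adjusted p = 0.0218) in MEP against GMP, where 0.286% of 62278 introns were called. The call was lost without any 1 of the 3 GMP libraries or without MEP library 1 or 2 (adjusted p of 0.0858 to 0.144). As a junction, the same intron gave 1.91 (log2, adjusted p = 0.0161), lost with limma-voom (adjusted p = 1) and without any GMP library or MEP library 3 (0.0648 to 0.247).

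Ldb1 intron 1 went the opposite way, with 29.6%, 28.2% and 23.6% in WT CMP, 12.2%, 13.4% and 12.7% in WT GMP and 47.8%, 37.8% and 29.8% in WT MEP (MEP against GMP, log2 2.07, SE 0.37, adjusted p = 0.000571). Here 1104 of the boundary reads in WT MEP were at the acceptor shared with the internal first exon and 11 at the donor of the distal exon. Transcripts from the internal exon give reads at that acceptor too, and the same 1104 reads are also counted for the internal junction. In MEP against CMP and GMP against CMP no member intron was called (backgrounds 0.294% and 0.053%), with 8 and 2 of 49 at an unadjusted p under 0.05 by edgeR (8.16% and 4.59% of all introns). With limma on the log2 ratios, 1 member intron was called in each of these. The share of all introns that limma called is not given here, so nothing is read from that count.

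**Figure D3:**
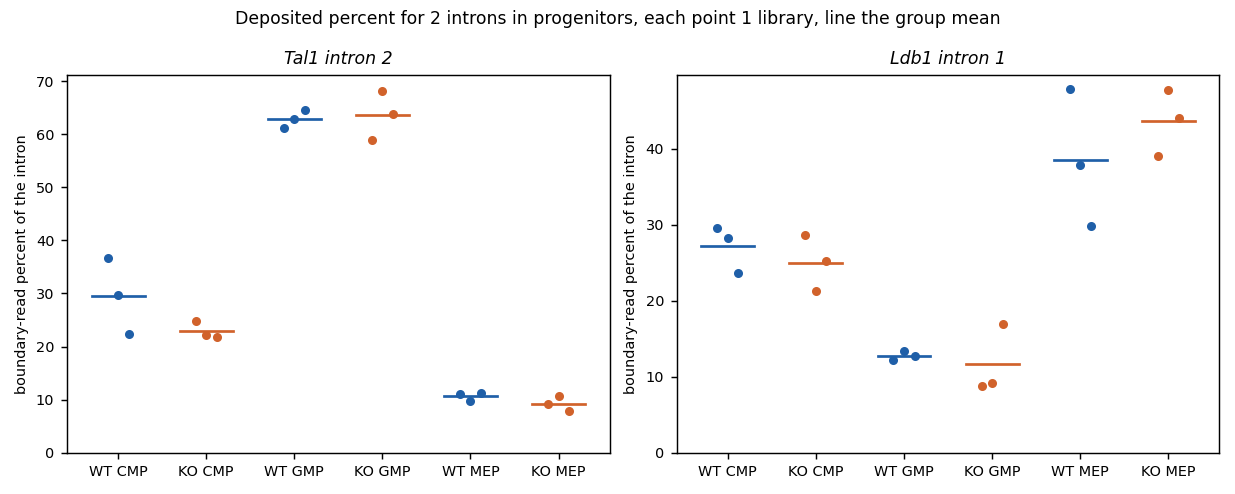
Deposited boundary-read percent of Tal1 intron 2 (left) and Ldb1 intron 1 (right) in each precursor library, with a line at the group mean, WT in blue and KO in orange. Tal1 intron 2 is near 63% in GMP and near 10% in MEP, and Ldb1 intron 1 has the reverse order.

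No member passed the test of KO against WT in level, although the libraries of Lmo2 and Nfe2 in CMP and of Gata1 in MEF did not overlap. No member was called by edgeR in KO against WT in CMP (0.0173% of 17367 genes called), GMP (0.0173%), MEP (0.0461%), MEF (0% of 16512) or Lin-Kit+ control cells (0% of 17597). With Zrsr1 hairpins in both genotypes, KO against WT called none either (0%). Log2 differences ran from -0.15 to 0.17 in CMP, -0.26 to 0.22 in GMP, -0.32 to 0.03 in MEP, -0.06 to 0.58 in Lin-Kit+ control cells and -0.13 to 0.47 in Lin-Kit+ cells with Zrsr1 hairpins. The range was widest in MEF, -0.48 to 1.12 over the 9 members tested there. At an unadjusted p under 0.05 there was 1 member in CMP and 1 in Lin-Kit+ cells with Zrsr1 hairpins, and none in GMP, MEP, MEF or Lin-Kit+ control cells. Of all genes, 5.92% were there in CMP, 2.55% in GMP, 4.45% in MEP, 1.59% in MEF, and 0.887% and 1.94% in Lin-Kit+ cells with control and Zrsr1 hairpins. DESeq2 called no member.

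The member in CMP was Lmo2, with 120, 122 and 126 CPM in KO against 108, 106 and 109 in WT. Its log2 difference was 0.17 (SE 0.077, unadjusted p = 0.0383, adjusted p = 0.834). Lmo2 and Nfe2 (27.5, 28.0 and 28.3 CPM in KO CMP) were the 2 members whose KO and WT libraries did not overlap in CMP, both higher in KO, where 6.22% of all genes were higher without overlap. In MEF Gata1 did so, at 0.437, 0.587 and 0.381 CPM in KO and 0.264, 0.245 and 0.209 in WT, which are 10 to 30 counts a library (background 2.36%). All members overlapped in GMP, MEP and Lin-Kit+ control cells (backgrounds 6.92%, 6.57% and 17.4% in either direction).

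The intervals bound what was measured. In MEP the KO difference of Gata1 was -0.08 (95% interval -0.53 to 0.37), with 183, 190.1 and 186 CPM in KO. Klf1 gave -0.19 (-0.56 to 0.19), Gfi1b -0.18 (-0.65 to 0.29) and Fli1 -0.32 (-0.81 to 0.17). Lmo2, with the narrowest interval in MEP, was -0.03 (-0.18 to 0.12), and Ldb1 was -0.02 (-0.21 to 0.17). Changes inside these intervals cannot be told from none at this number of libraries. No KO effect of a member passed the interaction test between cell types (0% of all genes called for GMP against CMP and 0.0115% for MEP against CMP or GMP, with 4.88%, 5.86% and 3.48% at an unadjusted p under 0.05). The lowest adjusted p of a member was 0.850, with none of 10 under an unadjusted p of 0.05. Of the erythroid, megakaryocyte and partner lists, no gene was called in KO against WT in MEP, with medians of -0.09, -0.07 and -0.05 against -0.01 for all genes.

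**Figure D4:**
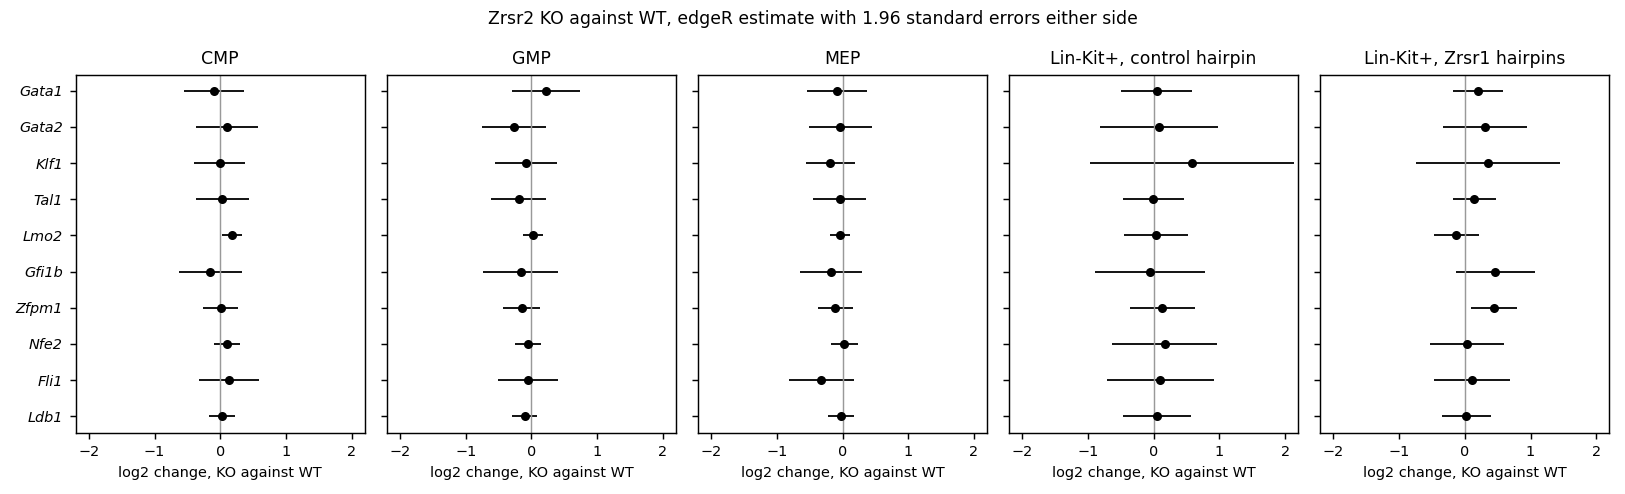
Log2 difference of each gene in KO against WT libraries, as an edgeR estimate (point) with its 95% interval (bar), in CMP, GMP, MEP and Lin-Kit+ cells with control or Zrsr1 hairpins. The bars cross 0 except for Lmo2 in CMP and Zfpm1 in Lin-Kit+ cells with Zrsr1 hairpins, and neither of these passed adjustment.

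Retention of member introns was called in no KO comparison (backgrounds 0.00321% in CMP, 0.00642% in GMP, 0.00482% in MEP and 0% in MEF and Lin-Kit+ cells). In MEF only 8 introns of 2 genes were tested. At an unadjusted p under 0.05 edgeR had 2, 2 and 3 of 49 introns in CMP, GMP and MEP, 0 of 8 in MEF, and 1 and 2 of 38 in Lin-Kit+ cells with control and Zrsr1 hairpins, where all introns gave 4.66%, 1.97%, 3.03%, 1.76%, 0.933% and 2.19% in the same order. In MEP, 3 introns of Fli1 had an unadjusted p under 0.05 by edgeR, introns 2, 3 and 8, all higher in KO (adjusted p = 1 each). WT MEP had 0 boundary reads in each, against 5, 4 and 11 in KO MEP, so no fold is given. For intron 8 KO MEP library 3 stood apart, at 8.77% against 1.18% and 0% in the others. Gata1 intron 4 was lower in KO in CMP (-1.30, unadjusted p = 0.0272) and GMP (unadjusted p = 0.00221), with an adjusted p of 1 in both. In GMP this rests on 9 boundary reads in WT (4, 0 and 5) and 0 in KO, so no fold is given. In MEP it measured 0.647% ± 0.436 in WT and 0.759% ± 0.280 in KO. The KO values of Tal1 intron 2 were 24.8%, 22.1% and 21.8% in CMP, 58.9%, 68.2% and 63.8% in GMP and 9.16%, 10.7% and 7.93% in MEP.

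Hairpins against Zrsr1 were compared with the control hairpin within each genotype, which asks what follows from lowering the second factor with and without ZRSR2. As the mean of sh1 and sh10, no member was called in WT or KO cells (0% of 17597 genes in both), with Tal1 and Zfpm1 in WT and Tal1 in KO at an unadjusted p under 0.05 by edgeR (7.45% and 7.21% of all genes). DESeq2 called Tal1 in WT (adjusted p = 0.0317), where it called 2.1% of genes. Libraries of 1 experiment deviated together, and with the experiment as a replicate block Tal1 (-0.74, adjusted p = 0.0280), Gata2 (-0.50, 0.0209) and Fli1 (-0.43, 0.0368) were called lower in WT, and Fli1 (-0.44, 0.0320) in KO. The background in the blocked fits was 8.71% in WT and 8.99% in KO. The hairpin effect did not pass a test of the difference between genotypes for any member (lowest unadjusted p = 0.336, none of 10 under 0.05, as against 1.31% of all genes).

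The 2 hairpins did not move these genes alike, so the mean hides what each did. Tal1 measured 24.4 and 30.4 CPM with the control hairpin in WT experiments 1 and 2, 19.6 and 17.4 with sh1 and 14.7 and 10.8 with sh10. In KO cells it gave 26.0 and 26.2, 20.5 and 17.97, and 18.04 and 10.4. Both hairpins were below control in all 4 pairs of genotype and experiment. With the block, sh10 gave -1.04 (SE 0.21, adjusted p = 0.0136) in WT and -0.82 (SE 0.21, 0.0378) in KO, and sh1 gave -0.44 (adjusted p = 0.270) and -0.37 (0.357).

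Gata2 fell with sh10 and not detectably with sh1. It measured 298 and 537 CPM with control, 322 and 438 with sh1 and 159.6 and 214 with sh10 in WT, and 328 and 508, 301 and 457, and 256 and 273 in KO. With the block, sh10 against control gave -1.04 (SE 0.13, adjusted p = 0.00184, background 10.2%) in WT and -0.52 (SE 0.13, 0.0323, background 8.79%) in KO. For sh1 the values were 0.04 (95% interval -0.21 to 0.28) in WT and -0.06 (-0.31 to 0.18) in KO. Zfpm1 behaved alike, with 27.2 and 30.9 CPM with control, 30.7 and 25.5 with sh1 and 11.9 and 9.01 with sh10 in WT, and 25.8 and 34.3, 35.5 and 26.6, and 19.4 and 13.5 in KO. Its log2 change with sh10 was -1.41 (SE 0.22, adjusted p = 0.00477) in WT and -0.80 (SE 0.22, 0.0488) in KO.

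Gata1 and Gfi1b were higher with sh1 than with sh10 in all 4 pairs, as were Gata2, Klf1, Tal1 and Zfpm1. The share of all genes for which this held is not given here. Gata1 gave 27.6 and 37.2 CPM with control, 53.4 and 46.7 with sh1 and 23.2 and 25.9 with sh10 in WT, and rose with sh1 by 0.78 (SE 0.16, adjusted p = 0.0225, background 5.24%). In KO it gave 28.3 and 35.2, 43.3 and 46.3, and 35.6 and 31.7, and the sh1 change of 0.58 had an adjusted p of 0.0632. Gfi1b in WT gave 23.2 and 44.0 CPM with control, 37.3 and 44.3 with sh1 and 15.2 and 14.2 with sh10, and fell with sh10 by 1.04 (log2 change -1.04, SE 0.21, adjusted p = 0.0147). In KO it gave 23.2 and 37.8, 40.3 and 48.1, and 21.2 and 25.8, and the sh10 change was -0.25 (adjusted p = 0.536). Klf1 was above control with sh1 in all 4 pairs, at 4.78 and 2.54 CPM in WT and 5.499 and 6.72 in KO. With control it had 1.08 and 1.53 CPM in WT and 3.38 and 0.586 in KO. These are low values, and Klf1 was not called.

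Fli1 was lowered by sh1. It measured 67.9 and 95.2 CPM with control, 40.0 and 59.4 with sh1 and 55.7 and 72.2 with sh10 in WT, and 76.2 and 90.2, 34.7 and 56.3, and 69.6 and 80.8 in KO. With the block, sh1 gave -0.59 (SE 0.12, adjusted p = 0.0266) in WT and -0.83 (SE 0.12, 0.00675, background 6.19%) in KO, and sh10 gave -0.26 (adjusted p = 0.246) and -0.05 (0.872). Lmo2 (4 of 4 pairs below control with each hairpin), Nfe2 (likewise) and Ldb1 were not called for either hairpin. Without the block, sh1 and sh10 each called no member in either genotype by edgeR (backgrounds 0% for sh1 in both, 0.0227% for sh10 in WT and 0% in KO). The sh1 and sh10 contrasts share their control libraries.

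**Figure D5:**
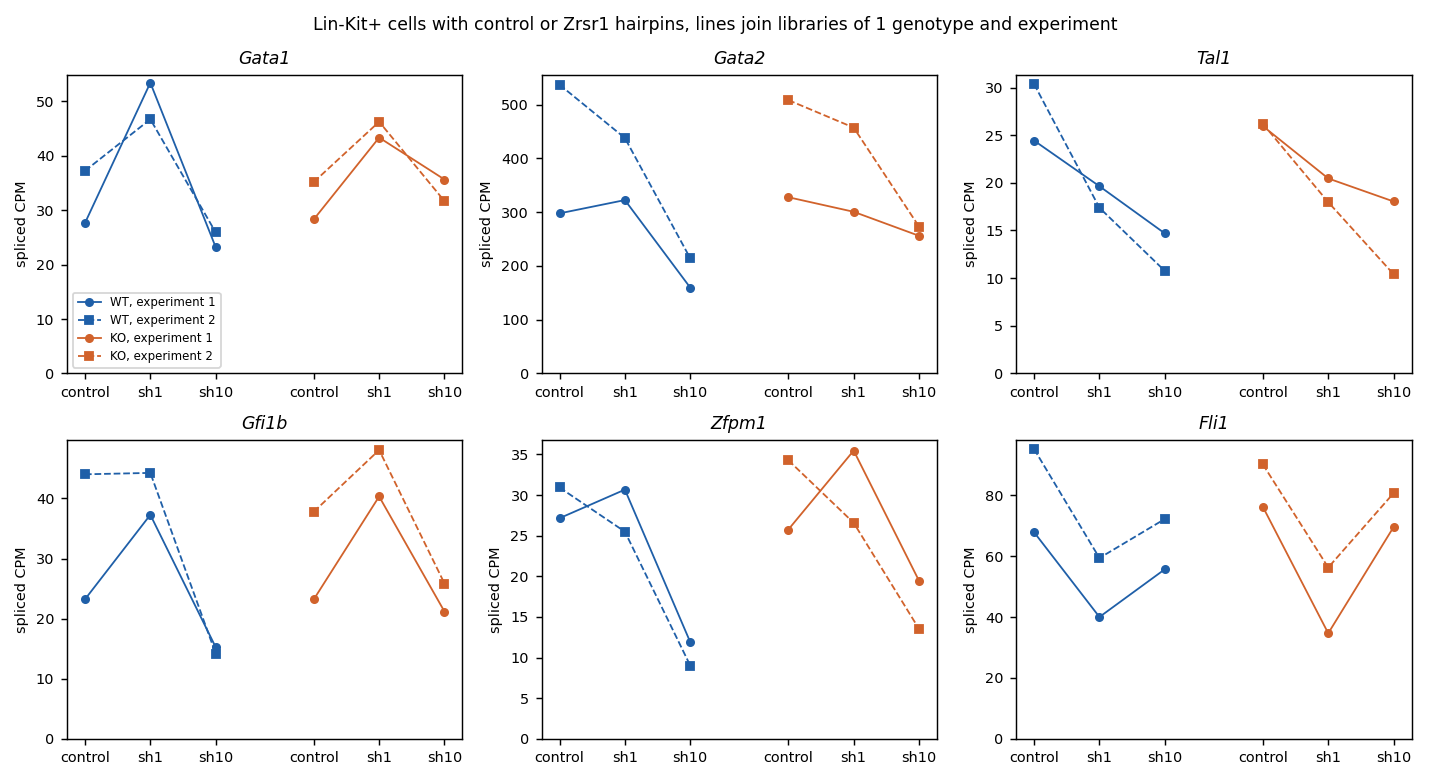
Spliced CPM of 6 genes in cultured Lin-Kit+ libraries (control hairpin, sh1 or sh10), with lines joining libraries of 1 genotype and experiment (WT blue, KO orange, experiment 1 solid, experiment 2 dashed, axes from 0). Tal1 steps down from control to sh1 to sh10 in all 4 lines, Gata1 and Gfi1b are highest with sh1, and Fli1 is lowest with sh1.

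Markers of other cells moved between the same libraries. The 11 mast cell and basophil genes summed to 7482 and 14917 CPM with control, 10088 and 15011 with sh1 and 4639 and 4900 with sh10 in WT, and to 7883 and 15559, 9761 and 16915, and 8453 and 8945 in KO. The 15 neutrophil genes summed to 12283 and 12273 CPM with control, 10243 and 9090 with sh1 and 20424 and 37235 with sh10 in WT. In KO they gave 10816 and 15472 with control, 10979 and 11037 with sh1 and 15719 and 27296 with sh10. The 13 monocyte and macrophage genes summed to 8240 and 8245 CPM with control, 9541 and 12131 with sh1 and 9887 and 12756 with sh10 in WT, and to 9410 and 9064, 13123 and 14112, and 13760 and 15358 in KO. With the block, 8 and 10 of these 13 were higher than control with sh1 and sh10 in WT, and 9 with each in KO, against 5.24%, 10.2%, 6.19% and 8.79% of all genes called. The 14 stem and progenitor transcription factors, none of them a member, summed to 564 and 622 CPM with control, 476 and 416 with sh1 and 419.5 and 389 with sh10 in WT, and to 573 and 513, 477 and 400.5, and 437 and 267 in KO. Like Tal1, this sum was below control with both hairpins in all 4 pairs and lower with sh10 than with sh1. Of the 14 genes, 1 was called lower with sh1 in each genotype, and 3 in WT and 2 in KO with sh10. No mast cell, neutrophil or monocyte marker was at 0 in any hairpin group, and of the stem and progenitor genes Hoxa10 was at 0 in KO with sh10. Tested as sh10 against sh1 with the block, 10 of 11 mast cell genes were lower in WT and 1 in KO, 7 of 15 neutrophil genes were higher in WT and 1 in KO, and 11 of 38 tested erythroid genes were lower in WT and 6 in KO, where 6.11% of all genes were called in WT and 1.86% in KO. The part of these cells in the changes of Gata2, Tal1, Zfpm1, Gfi1b, Gata1 and Fli1 was not tested. Junction use, tested for 9 of the 10 genes, and retention, tested for all 10, were called in no hairpin comparison (0% of 126759 and of 46630 introns). By edgeR, 1 intron was at an unadjusted p under 0.05, for retention in KO. Of all introns, 0.137% in WT and 0.348% in KO were there for junction use, and 0.896% and 1.87% for retention. The share of the distal Gata2 exon stayed at 37.7% and 39.1% with sh1 and 35.9% and 37.9% with sh10 in WT.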

How the data were processed

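Polyadenylated RNA was sequenced from 36 libraries, with TruSeq kits for CMP, GMP, MEP and MEF and NEBNext Ultra for Lin-Kit+ cells, per the labels' protocols. Per the submitters' processing notes the build was mm10. Which aligner and which counter were run is not given in the sources used here. The authors deposited, per intron, read counts over each exon-intron boundary and over the spliced junction, a covered fraction, and a percent of boundary reads that matches its formula in every library, per the file headers and values. Introns were matched to GENCODE M21, and 1887 lie in more than 1 gene. Spliced counts were summed per gene and tested with edgeR 4.0.16 (TMM, quasi-likelihood, filterByExpr, Benjamini-Hochberg adjustment at 0.05) in R 4.3.3, with precursors, MEF and Lin-Kit+ cells fitted separately. Junction use and retention were tested with diffSpliceDGE on the same counts. Errors of retention came from limma 3.58.1 on log2 ratios with 0.5 added, and DESeq2 1.42.0 was an alternative. Tables were made with Python 3.11.15, pandas 2.3.3 and numpy 2.4.6. Scripts were tested on simulated data. CPM carries no TMM scaling. Intervals given as 95% are 1.96 SE on each side, so one that leaves out 0 can go with an unadjusted edgeR p above 0.05.

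Named were the 10 members and Zrsr2, called introns or up to 2 per member with the smallest p, introns that share a site where the alternative takes 5% in a group, up to 3 called genes per list and comparison, and the 3 genes most alike per member, of which the first is printed; a list gene that this rule names is not reported here. The experiment number in the labels pairs Lin-Kit+ libraries (deviations correlate at 0.320 to 0.419 within an experiment). Numbers were not read as pairs of WT and KO in precursors (-0.00749 to 0.100) or MEF (-0.0773 to 0.380). In MEP, however, WT and KO libraries of 1 number correlated at 0.0305 to 0.100 and those of different numbers at -0.0891 to 0.00886. Within a genotype, CMP, GMP and MEP libraries of 1 number are read as 1 mouse. This rests on the titles and the 3 littermates per genotype in the series' design. Deviations of libraries of 1 number correlate at -0.00231 to 0.0760 in WT and -0.0387 to 0.0848 in KO. Libraries of different numbers gave -0.0559 to 0.0191 in WT and -0.0706 to 0.0782 in KO, so the ranges overlap. The mouse was a block in an alternative fit. The members and lists were chosen with earlier results of these data known.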

Additional observations from a re-analysis of the deposited data

Results flagged for a closer look

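Both hairpins are labelled as directed against Zrsr1, and 5 members differed between them when sh10 was tested directly against sh1 with the experiment as a replicate block. In WT cells, edgeR gave log2 differences of -1.09 for Gata1 (SE 0.16, adjusted p = 0.00464), -1.08 for Gata2 (SE 0.13, 0.00194), -1.50 for Gfi1b (SE 0.21, 0.00393) and -1.48 for Zfpm1 (SE 0.22, 0.00485), where 6.11% of all genes were called. Each of these 4 was lower with sh10 in both experiments of both genotypes. In KO cells the difference of Fli1 was 0.78 (SE 0.12, adjusted p = 0.0173, background 1.86%), and Fli1 was higher with sh10 in both experiments of both genotypes. In KO cells Gfi1b (-0.89, adjusted p = 0.0632), Zfpm1 (-0.90, 0.0688), Gata2 (-0.46, 0.101) and Gata1 (-0.39, 0.267) did not pass, nor did Fli1 in WT cells (0.33, adjusted p = 0.178). This contrast was chosen after seeing the data. Without the block no member passed (backgrounds 0.102% in WT and 0% in KO).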

How the results depend on the processing

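Over 194 results and 2163 alternative values, no called value changed its sign, and 172 uncalled values did. The counts of members called by gene level stayed at 8 to 9 of 10 (GMP against CMP), 9 (MEP against CMP) and 9 to 10 (MEP against GMP) when 1 library was left out. For junction use these ranges were 0 for GMP against CMP, 0 to 1 for MEP against CMP and 1 to 2 for MEP against GMP, and for retention 1 to 2 for MEP against GMP. With limma-voom, junction use called 0 members in GMP against CMP and 1 in MEP against GMP. Limma on log2 ratios called 1 for retention in each of GMP against CMP and MEP against CMP. Shares over all genes or introns are not given for these alternatives or for the fits with 1 library left out. Nothing is read from those counts about the members. With the replicate block, Zrsr1 hairpins against control called 3 members in WT and 1 in KO (0 in each without it), and DESeq2 called 1 in WT. Hairpins taken alone with the replicate block, chosen after seeing the data, called 2 (sh1) and 4 (sh10) in WT and 1 and 3 in KO, and sh10 against sh1 called 4 in WT and 1 in KO. With the mouse as replicate block, junction use called 3 in MEP against GMP (2 without it), and no other count of calls changed with a block. The causes of these shifts were not tested. Few reads lie behind Tal1 intron 2 in GMP, the distal Gata2 junction outside Lin-Kit+ cells, and Fli1 introns in MEP.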
